A study of Mus musculus with 35 samples.

Results

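NUP98-HOXA9 (NHA9) is a leukemia-associated fusion protein that joins the disordered N-terminal region of the nucleoporin NUP98 to the DNA-binding homeodomain of HOXA9. The NUP98 region carries phenylalanine-glycine (FG) motifs, which bind one another and help the fusion protein to collect in droplet-like puncta in the nucleus. The 2 constructs compared here differ little in how many intact FG motifs they hold (their FG valence), 21 in G-NHA9Midi and 17 in G-NHA9-21FGAA, but the motifs sit in different places. G-NHA9Midi, labelled G-NHX9-midi, is a shortened fusion that keeps only the C-terminal stretch of the FG region and lacks the GLEBS domain, a segment of NUP98 that binds the mRNA export factor Rae1. G-NHA9-21FGAA, labelled G-NHX9-21FGAA, is the fusion at full length, in which phenylalanine and glycine of 21 motifs were replaced by alanine.

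The comparison took in the 10 libraries whose labels name one of these constructs, 5 of each, out of 35 libraries of 7 conditions in the series. RNA-seq was done on mouse bone marrow cells depleted of lineage-positive cells (lin- HSPCs, a mixture of hematopoietic stem and progenitor cells), and the measure was the read count of each of 49671 annotated genes. All 10 libraries came from C57Bl/6 mice that were 8 weeks old and received no treatment. The cells were transduced with lentivirus, sorted for mCherry and for the mEGFP tag that both fusion proteins carry, and grown for 1 week in the semisolid medium Methocult M3434, to which GM-CSF was added at 10 ng/mL, a cytokine that drives granulocyte and macrophage growth. The 5 empty vector libraries, which carry mCherry and no fusion protein and came from mice of 8 to 10 weeks, were used as background. Hoxa9 is also given for the 5 libraries of the unaltered fusion, G-NHA9, which came from mice of 8 weeks, except replicate 1, from mice of 11 weeks. As a model, each library is a bulk culture of primary cells from mice of both sexes, and the study's methods describe fewer transductions of each virus than the labels give replicates, while the labels do not say which libraries share a transduction. The p-values therefore measure the spread between these libraries, part of which may be technical.

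HOX proteins are homeodomain transcription factors that are active in stem cells and early progenitors and are normally turned down as blood cells mature. NUP98 fusion proteins bind at HOX genes and keep them on, together with MEIS and PBX proteins, which are cofactors that bind DNA beside HOX proteins. Progenitors otherwise divide between a branch led by GATA factors, which yields red cells, megakaryocytes, mast cells and eosinophils, and a branch led by PU.1 and C/EBP factors, which yields neutrophils and monocytes.

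Read counts summed to 32201151 to 50617785 in the G-NHA9Midi libraries, 37911026 to 66910028 in the G-NHA9-21FGAA libraries and 31559914 to 48480625 in the empty vector libraries. Levels are given as CPM, the counts per 1000000 counts of library totals scaled by edgeR's TMM factors, and 3 counts corresponded to 0.0423 to 0.0900 CPM in the 10 libraries. These values are not divided by gene length, so levels are compared between libraries and not between genes. The G-NHA9-21FGAA replicates 4 and 5 stood apart from replicates 1 to 3 of that construct in several of the genes below, and counts that changed by more than 1.5 times without them are given with that value. Values for single libraries are in the order of replicates 1 to 5.

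G-NHA9Midi and G-NHA9-21FGAA cells differed in 36.1% of the genes tested, and among the larger differences losses in G-NHA9Midi outnumbered gains. Of 17166 genes with enough counts to test, 6191 changed at a threshold of 0.05 on the p of edgeR's quasi-likelihood test, adjusted over all tested genes after Benjamini and Hochberg and here called edgeR adjusted p. In G-NHA9Midi 3105 genes (18.1%) were higher and 3086 (18%) were lower, and these shares are the background for every count of called list members below. At an absolute log2 fold change of at least 1, however, 690 genes were higher and 1655 were lower (13.7% in all), and beyond 3 the counts were 121 and 370. Over all tested genes the median log2 fold change was 0.02. Libraries of the constructs did not overlap in 24.5% of tested genes, with G-NHA9Midi above in 12.3% and below in 12.2%. The test was also run on simulated counts, drawn for each library on its own from each gene's mean over all 35 libraries. It recovered 62% of 100 genes changed 2-fold and 92% of 100 genes changed 4-fold, and called 9 unchanged genes. The simulation held far fewer changed genes than the data and no shift between replicates, so these values may not hold for the data.

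**Figure D1:**
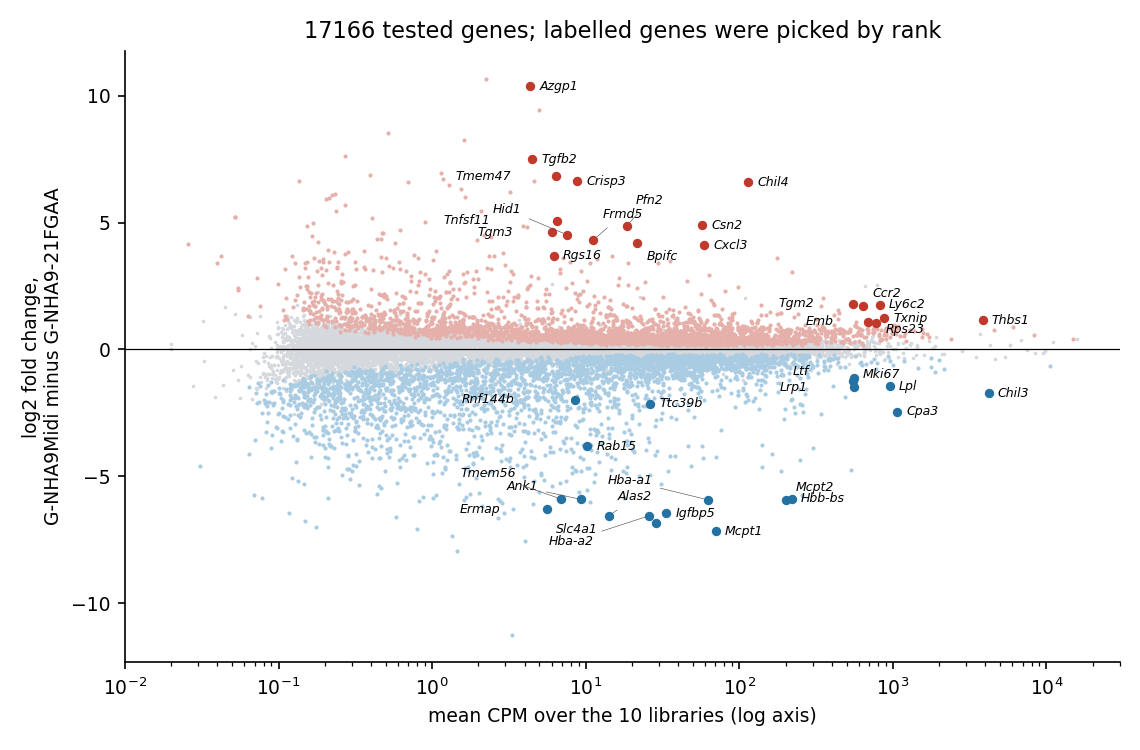
Each point is 1 of 17166 tested genes, placed by its mean CPM over the 10 libraries (log axis) and its log2 fold change, G-NHA9Midi minus G-NHA9-21FGAA. Pale red and pale blue points passed an adjusted p of 0.05 as higher or lower in G-NHA9Midi, gray points did not, and the labelled genes were picked by size, abundance or lowest p. There are 370 called genes below -3 against 121 above 3, and the most abundant of the 370 is Prg2, at a mean of 529.9 CPM.

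The genes from which the fusion is made were examined first. Hoxa9 (chromosome 6, 52223100 to 52231089, minus strand, GRCm38) measured 30.6, 44.4, 37.8, 25.5 and 34.5 CPM in the G-NHA9Midi libraries and 4.91, 3.83, 5.15, 1.00 and 1.53 CPM in the G-NHA9-21FGAA libraries. Every G-NHA9Midi library was far above every G-NHA9-21FGAA library, and in the latter replicate 4 lay within the empty vector range of 0.693 to 1.26 CPM and replicate 5 just above it. The difference was a log2 fold change of 3.40 ± 0.34 (SE, edgeR adjusted p = 1.6e-09). Against the empty vector, Hoxa9 was higher by 5.14 on the log2 scale in G-NHA9Midi (edgeR adjusted p = 3.5e-12) and by 1.74 in G-NHA9-21FGAA (edgeR adjusted p = 7.7e-04). In the same scale the mean of the unaltered fusion, G-NHA9, was 96.6 ± 14.4 CPM (SD, n = 5), and that of G-NHA9Midi was 34.6 ± 7.19 CPM. Nup98 (chromosome 7, 102119398 to 102210176, minus strand) measured 171, 177, 163, 140.0 and 186 CPM with G-NHA9Midi and 171, 139, 143, 167 and 199 CPM with G-NHA9-21FGAA. These ranges overlapped, and the log2 fold change was 0.03 ± 0.12 (edgeR adjusted p = 0.86). Reads from the construct itself could be counted on either gene, and their share was not tested.

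Most Hox genes that could be tested were higher with G-NHA9Midi. Of the 39 Hox genes, 21 passed the filter on low counts and 12 of these were higher in G-NHA9Midi, where 18.1% of all tested genes were. The median log2 fold change over the 21 was 1.32, and none was lower by edgeR (1 at an unadjusted p under 0.05, and 1 by DESeq2). A gene could pass the filter through its level in G-NHA9Midi or in another condition. Of the 39, 23 had at most 3 counts in every G-NHA9-21FGAA library, against 16 in G-NHA9Midi. The count of 12 and the median therefore depend in part on the filter. The 12 were Hoxa2, Hoxa3, Hoxa5, Hoxa6, Hoxa7, Hoxa9 and Hoxa10 of the A cluster, Hoxb3, Hoxb4, Hoxb8 and Hoxb9 of the B cluster, and Hoxc8. Hoxb8, Hoxb9 and Hoxc8 were near the detection limit: G-NHA9-21FGAA had at most 3 counts per library in the first 2, where the level in G-NHA9Midi was at least 1.35-fold and at least 1.53-fold higher, and Hoxc8 libraries overlapped. With a filter at a mean of 1 CPM, 6 of the 12 remained testable and higher. The 18 untested Hox genes, among them every Hoxd gene, had too few counts in these cells for a comparison.

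Hoxa7, a neighbor of Hoxa9 in the A cluster, measured 15.2, 15.5, 15.5, 10.7 and 12.7 CPM in G-NHA9Midi and 4.30, 3.58, 4.76, 1.10 and 1.22 CPM in G-NHA9-21FGAA, with an empty vector range of 0.365 to 1.24 CPM. The groups did not overlap, and as for Hoxa9, replicates 4 and 5 of G-NHA9-21FGAA were the lowest of their group and lay within the empty vector range. The difference was a log2 fold change of 2.22 ± 0.35 (SE, edgeR adjusted p = 5.0e-06). Hoxa5 measured 4.60, 7.77, 5.48, 3.74 and 4.74 CPM against 1.72, 1.70, 1.51, 0.732 and 1.38 CPM, a log2 fold change of 1.91 ± 0.26 (SE, edgeR adjusted p = 3.7e-07). Here every G-NHA9-21FGAA library still exceeded the empty vector range of 0.0918 to 0.266 CPM. In the B cluster the pattern was another: Hoxb3 measured 2.41, 3.09, 3.03, 2.38 and 2.95 CPM in G-NHA9Midi and 0.340, 0.538, 0.528, 0.493 and 0.334 CPM in G-NHA9-21FGAA. G-NHA9-21FGAA libraries lay inside the empty vector range of 0.240 to 1.04 CPM, and the difference between the constructs was a log2 fold change of 2.62 ± 0.23 (SE, edgeR adjusted p = 8.0e-11). For Hoxb4, which promotes stem cell renewal, the log2 fold change was 0.95 ± 0.18 (edgeR adjusted p = 7.9e-05). The summed level of the 39 genes was 67.4, 85.97, 76.5, 55.5 and 71.3 CPM in G-NHA9Midi, 19.5, 17.6, 20.3, 9.97 and 11.98 CPM in G-NHA9-21FGAA and 6.98 to 9.61 CPM in the empty vector. Against the empty vector, 13 of the 21 tested Hox genes were higher in G-NHA9Midi, where 20.5% of all tested genes were higher, and 7 were higher and 1 lower in G-NHA9-21FGAA, where 14.7% were higher and 12.5% lower. Because both comparisons use the same empty vector libraries, their counts are set side by side only. Antisense transcripts lie over Hoxa5, Hoxa7 and Hoxb3, and as the strand setting of the read counting is not given, their reads cannot be told apart from those of the genes.

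**Figure D2:**
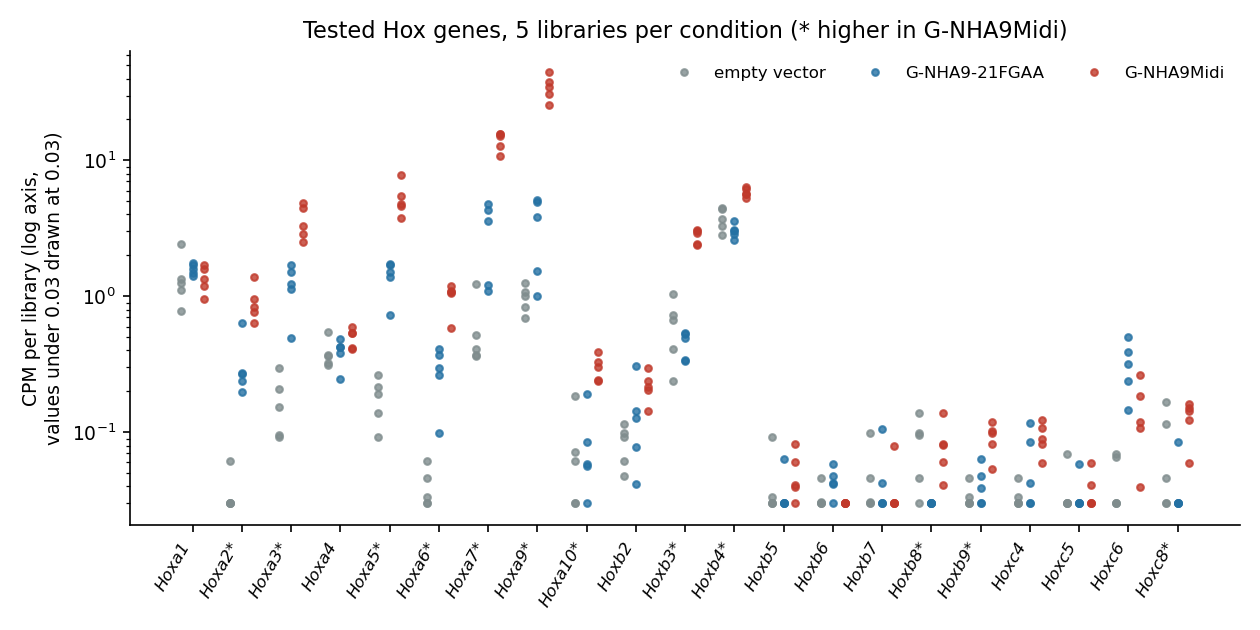
CPM of the 21 tested Hox genes (log axis, values under 0.03 drawn at 0.03) in 5 libraries each of the empty vector, G-NHA9-21FGAA and G-NHA9Midi, with an asterisk on the 12 genes that were higher in G-NHA9Midi. Hoxa9 shows the widest gap among the abundant members, from 1.00 to 5.15 CPM in G-NHA9-21FGAA against 25.5 to 44.4 CPM in G-NHA9Midi.

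Genes of the TALE class split, and no MEIS or PBX gene was among those higher in G-NHA9Midi. This class of homeodomain proteins includes the HOX cofactors MEIS and PBX, but not every member is a HOX cofactor. Of 10 tested genes 5 were lower in G-NHA9Midi (among them Meis1, Meis3, Pbx3 and Pknox2) and 3 were higher (Pknox1, Tgif1 and Tgif2). Of all tested genes 18% were lower and 18.1% higher, and the median log2 fold change of the 10 was -0.34. Meis1, a cofactor with which HOXA9 drives leukemia, measured 12.1, 8.49, 12.7, 14.9 and 10.6 CPM in G-NHA9Midi and 30.04, 29.03, 27.4, 31.9 and 39.99 CPM in G-NHA9-21FGAA. The groups did not overlap, and 4 of the 5 G-NHA9Midi libraries lay in the empty vector range (9.30 to 15.9 CPM) while every G-NHA9-21FGAA library lay above it. The difference was a log2 fold change of -1.43 ± 0.18 (SE, edgeR adjusted p = 9.5e-08). Pbx3 differed less, by -0.39 ± 0.14 (edgeR adjusted p = 0.026) on the log2 scale. The construct with more Hoxa9 RNA had less Meis1 and Pbx3 RNA.

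Among 10 genes for NUP98 itself and proteins that act with its FG region, Rae1, the mRNA export factor that binds the GLEBS domain, was the one that passed, with a log2 fold change of 0.33 ± 0.07 (edgeR adjusted p = 3.5e-04). The export receptor Xpo1 and the acetyltransferases Crebbp and Ep300 had values of -0.33, -0.68 and -0.55, which did not pass. None was lower in the main edgeR fit, 1 being so at an unadjusted p under 0.05 and 1 by DESeq2. With a term for replicate number added to the edgeR model, 5 were lower.

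Stem and progenitor genes split into members that were higher with one construct and members that were higher with the other. Of 14 tested surface markers, 7 rose in G-NHA9Midi (Flt3, Cd27, Thy1, Ly6a, Cd33, Prom1 and Cd93) and 5 fell (among them Slamf1, Esam, Kit and Cd34), with a median log2 fold change of 0.26. Of all tested genes 18.1% were higher and 18% lower. Flt3, the receptor tyrosine kinase of lymphoid and myeloid progenitors, measured 2.65, 1.26, 2.78, 2.62 and 1.69 CPM in G-NHA9Midi and 0.298, 0.311, 0.254, 0.225 and 0.334 CPM in G-NHA9-21FGAA, a log2 fold change of 2.96 ± 0.29 (SE, edgeR adjusted p = 7.0e-10). Its level was low in both, and the G-NHA9-21FGAA libraries lay in the upper part of the empty vector range (0.0918 to 0.332 CPM) or, for replicate 5, just above it. Kit, the stem cell factor receptor, measured 39.3, 45.7, 44.5, 49.9 and 71.2 CPM against 127, 136, 142, 219 and 226 CPM, a log2 fold change of -1.76 ± 0.26 (SE, edgeR adjusted p = 1.9e-06). The groups did not overlap, G-NHA9-21FGAA replicates 4 and 5 were the highest, and the empty vector (72.3 to 95.5 CPM) lay between the constructs. Cd34, a sialomucin of progenitors, measured 71.5, 45.3, 71.8, 84.6 and 68.4 CPM against 184, 189, 187, 222 and 247 CPM, and the log2 fold change was -1.59 ± 0.18 (edgeR adjusted p = 2.2e-08). Both constructs were above the empty vector for Cd34, by 0.89 in G-NHA9Midi (edgeR adjusted p = 1.9e-04) and by 2.48 in G-NHA9-21FGAA (edgeR adjusted p = 1.1e-10) on the log2 scale. Slamf1, the CD150 marker of stem cells, fell by 4.10 ± 0.41 on the log2 scale (edgeR adjusted p = 1.3e-09). As these are bulk cultures, fewer cells that carry a transcript and less of it per cell cannot be told apart, here and in every list that follows.

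Transcription factors of stem cells and leukemia also moved both ways, with 5 of 22 tested genes higher, where 18.1% of all tested genes were, 7 lower, where 18% were, and a median of -0.13. Sox4, Hlf, Lyl1 and Lmo2 were among those higher in G-NHA9Midi, and Gata2, Bcl11a, Mecom, Trib2, Mycn, Tal1 and Runx1 were lower. Sox4, an HMG-box factor active in acute leukemia, measured 28.4, 32.8, 31.3, 23.1 and 24.6 CPM in G-NHA9Midi and 9.48, 8.06, 10.2, 5.62 and 9.17 CPM in G-NHA9-21FGAA, a log2 fold change of 1.72 ± 0.17 (SE, edgeR adjusted p = 1.2e-09). The G-NHA9-21FGAA range covered that of the empty vector (6.05 to 9.26 CPM), and all G-NHA9Midi libraries lay above both. Gata2, which acts in stem cells, mast cells and megakaryocytes, measured 43.5, 34.4, 52.8, 65.2 and 63.8 CPM against 138, 111, 136, 163 and 246 CPM, a log2 fold change of -1.61 ± 0.27 (SE, edgeR adjusted p = 1.8e-05). Its groups did not overlap. Hlf, a bZIP factor of stem cells, had a log2 fold change of 1.51 ± 0.25 (SE, edgeR adjusted p = 1.5e-05), while Myc and Myb, at 0.30 and 0.18, did not pass. 

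**Figure D3:**
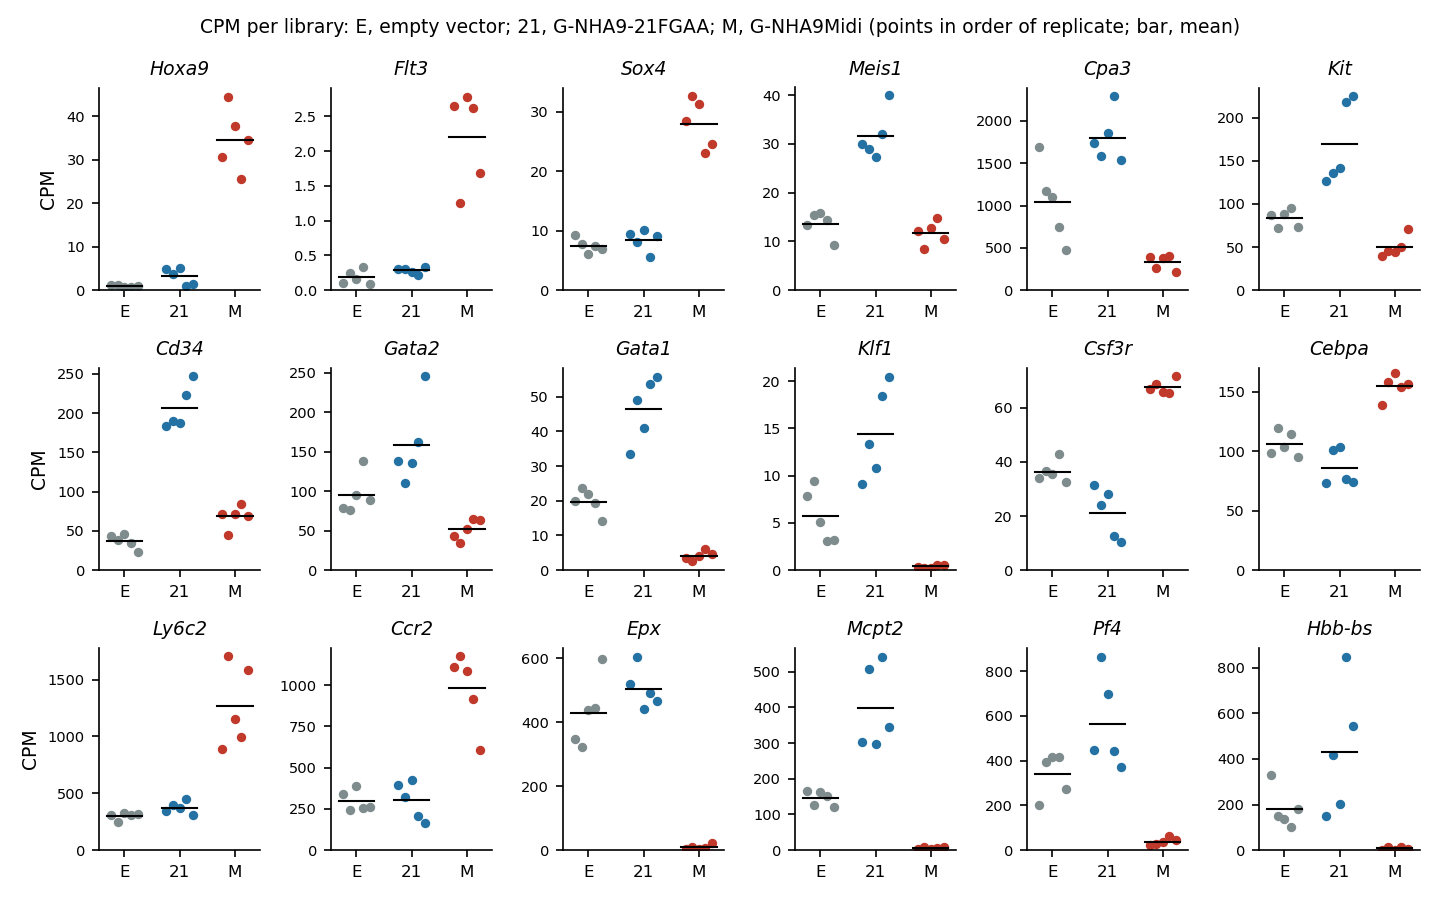
CPM per library for 18 genes named in the text, in panels with the empty vector (E), G-NHA9-21FGAA (21) and G-NHA9Midi (M), with points in replicate order and a bar at the mean. Hoxa9, Flt3, Sox4, Csf3r, Cebpa, Ly6c2 and Ccr2 are higher in G-NHA9Midi than in G-NHA9-21FGAA without overlap, and Meis1, Cpa3, Kit, Cd34, Gata2, Gata1, Klf1, Epx, Mcpt2, Pf4 and Hbb-bs are lower without overlap.

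Red cell genes showed the largest loss of any list. All 4 tested globin genes of 8 and 17 of 18 genes of the red cell membrane and its skeleton were lower in G-NHA9Midi, with median log2 fold changes of -5.90 and -5.86. Hbb-bs, which encodes adult beta globin, measured 0.698, 15.6, 1.62, 13.2 and 5.93 CPM in G-NHA9Midi and 152, 417, 205, 847 and 543 CPM in G-NHA9-21FGAA. The lowest G-NHA9-21FGAA library still had several times the level of the highest G-NHA9Midi library, and G-NHA9-21FGAA replicates 4 and 5 were the highest. The difference was a log2 fold change of -5.89 ± 0.70 (SE, edgeR adjusted p = 3.9e-08), and Hba-a1, for alpha globin, differed by -5.92 ± 0.57 (edgeR adjusted p = 6.1e-10). Hbb-bs shares most of its sequence with Hbb-bt, and Hba-a1 with Hba-a2, so that the split of reads within each pair is uncertain. Slc4a1, the band 3 anion exchanger, measured 0.179, 1.14, 0.102, 0.776 and 0.474 CPM against 14.2, 48.8, 17.9, 110.1 and 94.9 CPM, a log2 fold change of -6.83 ± 0.74 (SE, edgeR adjusted p = 6.6e-09). The 10 libraries did not overlap, and the spread inside each group was wide. Xk, a membrane transport protein, was the red cell member that did not pass, at -0.49. 

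The enzymes and factors behind red cell formation followed. Of 11 genes of heme synthesis 7 were lower (median -0.93), led by Alas2, the erythroid form of the first enzyme of the pathway, and Tspo2, at -6.56 and -5.68, while Uros, Urod, Ppox and Slc25a38 lay between -0.21 and -0.10 and did not pass. Of 8 erythroid transcription factors 6 were lower (median -1.34). Gata1, the master factor of red cells and megakaryocytes, measured 3.53, 2.52, 3.99, 6.02 and 4.74 CPM in G-NHA9Midi and 33.6, 48.95, 40.9, 53.7 and 55.8 CPM in G-NHA9-21FGAA, a log2 fold change of -3.48 ± 0.24 (SE, edgeR adjusted p = 6.2e-13). Klf1, which activates adult beta globin, measured 0.359, 0.270, 0.266, 0.535 and 0.536 CPM against 9.16, 13.4, 10.8, 18.4 and 20.4 CPM, a log2 fold change of -5.19 ± 0.45 (SE, edgeR adjusted p = 6.5e-11). Both were separated in every library, and the empty vector lay between the constructs, at 14.1 to 23.6 CPM for Gata1 and 3.09 to 9.41 CPM for Klf1. Epor, the erythropoietin receptor, fell by 4.18 on the log2 scale. 

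Set beside the empty vector, the medians of the constructs took opposite signs for red cell genes. Of the 18 membrane and skeleton genes, 15 were lower in G-NHA9Midi (20% of all tested genes were lower), and 14 were higher in G-NHA9-21FGAA (14.7% of all tested genes were higher), with medians of -4.45 and 1.26. Of the 4 tested globin genes, 3 were lower in G-NHA9Midi and 2 higher in G-NHA9-21FGAA. The summed globin level was 38.8, 57.8, 49.4, 74.8 and 56.9 CPM in G-NHA9Midi, 289.7, 762, 413, 1499.9 and 975 CPM in G-NHA9-21FGAA and 189.6 to 574 CPM in the empty vector. The summed membrane and skeleton level was 339.6, 442.7, 331.7, 615.5 and 609.3 CPM in G-NHA9-21FGAA and 264 to 374 CPM in the empty vector. In both sums, replicates 1 and 3 of G-NHA9-21FGAA lay within the empty vector range. Most of what remained in G-NHA9Midi was Hbb-bt, at a mean of 45.5 ± 8.63 CPM (SD, n = 5), against 7.41 ± 6.73 CPM of Hbb-bs. Without G-NHA9-21FGAA replicates 4 and 5, the 4 globin and 17 membrane genes were still lower in G-NHA9Midi than in G-NHA9-21FGAA. The comparison with the empty vector was not run without them.

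**Figure D4:**
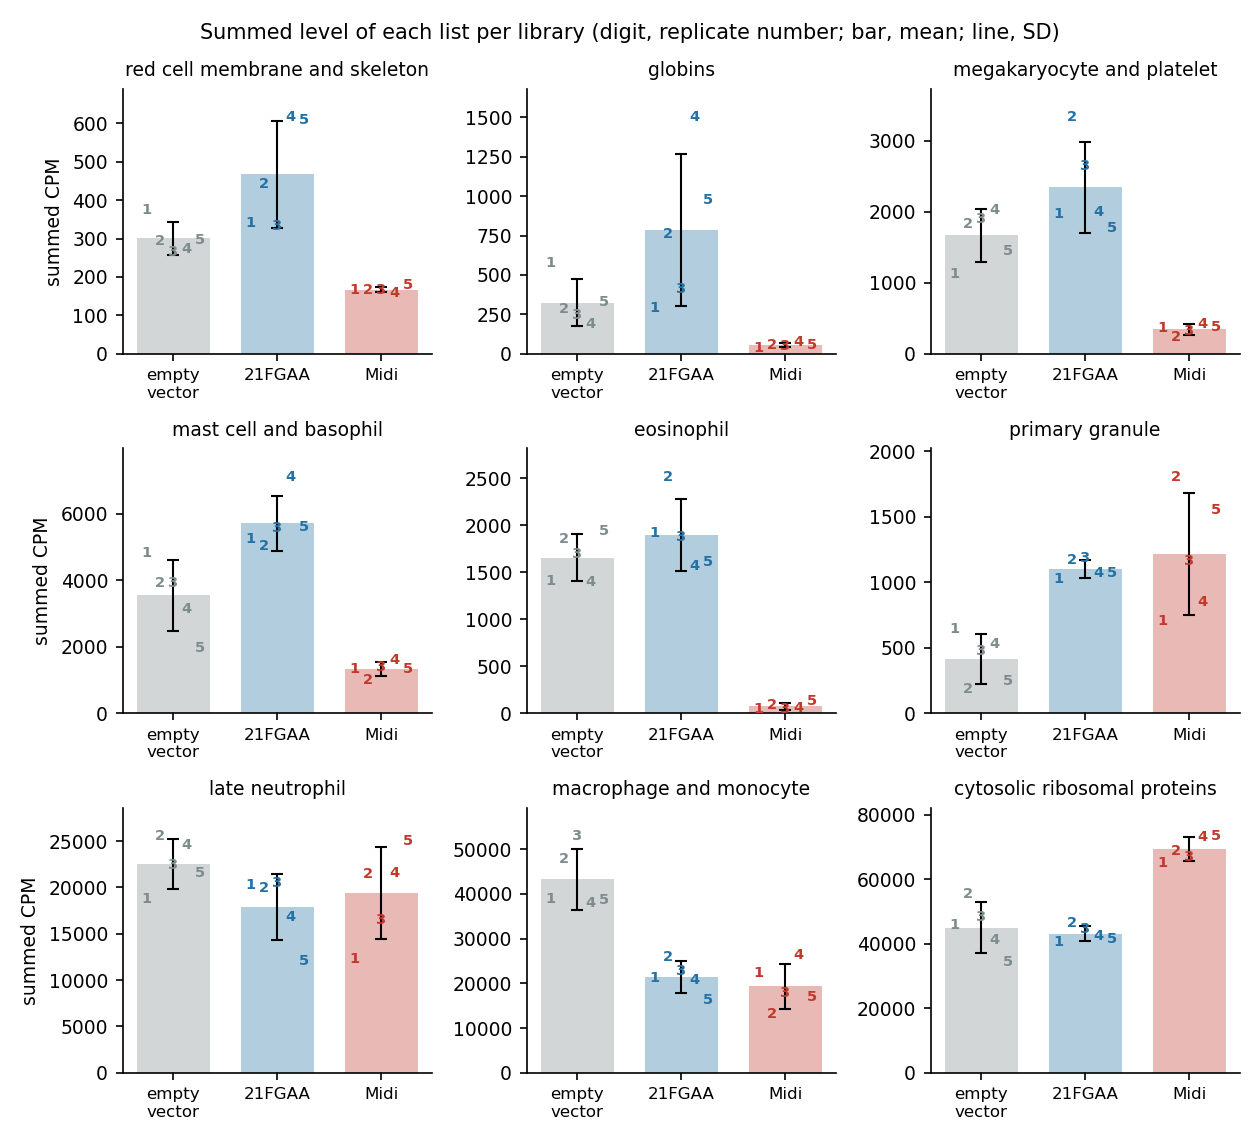
Summed CPM of 9 gene lists per library in the empty vector, G-NHA9-21FGAA and G-NHA9Midi, where digits are replicate numbers, bars are means, lines are the SD over 5 libraries and each axis starts at 0. G-NHA9Midi libraries lie below both other groups in the red cell, globin, megakaryocyte, mast cell and eosinophil panels and above both in the ribosomal protein panel, and the granule, neutrophil and macrophage panels show overlap between the constructs.

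Megakaryocyte and platelet genes fell as well. Of 12 tested genes 11 were lower in G-NHA9Midi, the libraries of all 12 lay below without overlap (12.2% of all tested genes), and the median was -3.91. Pf4, platelet factor 4, measured 21.5, 28.5, 36.4, 61.4 and 43.9 CPM against 447, 864, 697, 445 and 372 CPM, a log2 fold change of -3.88 ± 0.40 (SE, edgeR adjusted p = 1.9e-09). Replicates 2 and 3 of G-NHA9-21FGAA were the highest here, not replicates 4 and 5. Itga2b, the CD41 integrin chain of platelets and early progenitors, differed by -2.48 ± 0.23 (edgeR adjusted p = 2.6e-10), and the platelet glycoprotein genes Gp1ba, Gp1bb, Gp9 and Gp6 by -4.80, -4.31, -4.42 and -4.03. F2rl2, a thrombin receptor, had -0.46 and did not pass. Against the empty vector, 11 of the 12 were lower in G-NHA9Midi and 1 was higher in G-NHA9-21FGAA.

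Mast cell and basophil genes showed the same direction in 14 of 16 tested members, with a median of -2.59. Cpa3, the mast cell carboxypeptidase and the most abundant of them, measured 393, 257, 376, 404 and 220.3 CPM in G-NHA9Midi and 1740.1, 1581, 1857, 2290.5 and 1534 CPM in G-NHA9-21FGAA, a log2 fold change of -2.45 ± 0.26 (SE, edgeR adjusted p = 3.2e-09). Mcpt2, a mucosal mast cell protease, measured 3.07, 8.94, 3.44, 7.44 and 10.01 CPM against 303, 506, 298, 541 and 344 CPM, a log2 fold change of -5.93 ± 0.35 (SE, edgeR adjusted p = 3.6e-14). Neither gene overlapped between the constructs. Mcpt1, its near neighbor in sequence and place, had the largest log2 fold change of the falling genes picked by rank, -7.16 ± 0.79 (edgeR adjusted p = 9.2e-09), and ranged from 30.5 CPM in replicate 1 to 378 CPM in replicate 4 of G-NHA9-21FGAA. The IgE receptor chain Fcer1a fell by 3.77, and the pair that did not pass, Mitf and the steroid enzyme Cyp11a1, had -0.18 and -0.15. The mast cell list held transcripts at high level in both constructs, with sums of 1333, 1004, 1379.9, 1588 and 1325 CPM in G-NHA9Midi and 5235, 5039.9, 5561, 7105 and 5588 CPM in G-NHA9-21FGAA. Against the empty vector 13 members were lower in G-NHA9Midi, and 8 were higher in G-NHA9-21FGAA.

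Eosinophil genes were low in G-NHA9Midi and near the empty vector level in G-NHA9-21FGAA. Of 9 tested genes 8 were lower in G-NHA9Midi (median -4.27), and against the empty vector the medians were -4.12 in G-NHA9Midi, where 8 were lower, and 0.23 in G-NHA9-21FGAA. Epx, eosinophil peroxidase, measured 4.27, 10.2, 4.11, 6.12 and 22.5 CPM in G-NHA9Midi and 520.1, 604, 441, 493 and 468 CPM in G-NHA9-21FGAA, a log2 fold change of -5.74 ± 0.52 (SE, edgeR adjusted p = 1.4e-10). The G-NHA9-21FGAA libraries lay within the empty vector range of 322 to 598 CPM, except replicate 2, which was just above it. Prg2, the major basic protein of eosinophil granules, measured 20.3, 50.2, 22.2, 27.6 and 68.5 CPM against 1013, 1395, 1001, 860.3 and 841 CPM, a log2 fold change of -4.76 ± 0.46 (SE, edgeR adjusted p = 5.1e-10). Ear1, Ear2 and Ear6 are near copies of one another, so their separate values are uncertain. Il5ra, the receptor chain for the eosinophil cytokine IL-5, fell by 4.70. Ccr3, the eotaxin receptor, was the exception, with 2.29, 2.10, 1.70, 1.47 and 1.17 CPM against 0.808, 0.787, 0.763, 0.423 and 0.382 CPM and a log2 fold change of 1.46 ± 0.30 (SE, edgeR adjusted p = 2.4e-04). 

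None of the globin, red cell, heme, erythroid factor, megakaryocyte and mast cell genes tested was higher in G-NHA9Midi, by edgeR, by edgeR at an unadjusted p under 0.05 or by DESeq2.

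Because these lists hold known targets of GATA factors, the 250 bases before the RefSeq start sites were searched for the letters AGATAA or TGATAA on both strands, the core that GATA factors bind (RefSeq, GRCm38.p6). The letters occurred in 16.6% of 32851 promoters of all genes. They were present in 6 of 7 globin promoters (85.7%), 10 of 17 mast cell promoters (58.8%), 6 of 14 red cell membrane promoters (42.9%), 4 of 10 megakaryocyte promoters (40%), 3 of 11 heme promoters (27.3%), 2 of 8 erythroid factor promoters (25%) and 2 of 8 eosinophil promoters (25%). Among the lists of other kinds, shares were above that of all promoters for the NADPH oxidase (2 of 3, 66.7%), growth factor receptors (4 of 9, 44.4%), MHC class II genes (3 of 8, 37.5%), late neutrophil genes (3 of 16, 18.8%) and interferon-induced genes (3 of 17, 17.6%), and the Hox genes had 3 of 24 (12.5%). RefSeq tables matched 12 of the 18 red cell membrane genes, and genes with several start sites count more than once. A match is a description of the sequence and not evidence of binding in these cells. Promoters of 5 genes that fell, picked because they hold the letters, are printed 5′ to 3′ along the gene, with the matched letters in capitals, to show where the core lies in a red cell enzyme gene, a red cell factor gene, a globin gene and mast cell protease genes. Their positions are chrX:150547167-150547416 (plus strand) for Alas2, chr8:84901732-84901981 (plus strand) for Klf1, chr7:103827929-103828178 (minus strand) for Hbb-bs, chr14:56017714-56017963 (plus strand) for Mcpt1 and chr3:20242182-20242431 (minus strand) for Cpa3.
Alas2: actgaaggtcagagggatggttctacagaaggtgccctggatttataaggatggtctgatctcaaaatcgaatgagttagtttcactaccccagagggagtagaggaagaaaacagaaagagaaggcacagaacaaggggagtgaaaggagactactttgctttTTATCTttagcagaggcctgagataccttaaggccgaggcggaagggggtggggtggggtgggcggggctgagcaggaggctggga
Klf1: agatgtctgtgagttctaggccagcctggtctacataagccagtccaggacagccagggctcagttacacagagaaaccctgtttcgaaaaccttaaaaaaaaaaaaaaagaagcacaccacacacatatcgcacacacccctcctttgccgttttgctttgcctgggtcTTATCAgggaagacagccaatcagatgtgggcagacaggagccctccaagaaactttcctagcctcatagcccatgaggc
Hbb-bs: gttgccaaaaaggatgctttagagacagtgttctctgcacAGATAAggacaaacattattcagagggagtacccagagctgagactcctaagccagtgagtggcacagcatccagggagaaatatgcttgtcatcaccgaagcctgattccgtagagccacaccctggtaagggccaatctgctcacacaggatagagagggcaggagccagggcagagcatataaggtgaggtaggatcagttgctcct
Mcpt1: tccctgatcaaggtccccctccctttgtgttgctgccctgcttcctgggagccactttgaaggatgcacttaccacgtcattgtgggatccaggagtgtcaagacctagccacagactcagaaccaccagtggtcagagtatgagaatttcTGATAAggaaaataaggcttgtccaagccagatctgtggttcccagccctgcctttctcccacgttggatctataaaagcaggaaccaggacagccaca
Cpa3: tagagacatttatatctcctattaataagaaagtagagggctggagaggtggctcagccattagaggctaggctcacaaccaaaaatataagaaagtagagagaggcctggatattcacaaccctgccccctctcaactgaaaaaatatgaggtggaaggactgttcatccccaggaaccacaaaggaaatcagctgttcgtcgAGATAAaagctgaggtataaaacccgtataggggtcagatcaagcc

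Growth factor receptors changed in both directions, and most myeloid transcription factors did not pass. Csf3r, the G-CSF receptor, measured 66.8, 68.8, 65.7, 65.3 and 71.8 CPM in G-NHA9Midi and 31.3, 24.2, 28.03, 12.5 and 10.3 CPM in G-NHA9-21FGAA, a log2 fold change of 1.67 ± 0.23 (SE, edgeR adjusted p = 5.9e-07). The empty vector (32.6 to 42.9 CPM) lay between them. Of the 11 receptor genes tested, 3 were higher and 5 were lower, where 18.1% of all tested genes were higher and 18% lower. Csf1r, the M-CSF receptor, had 0.07 and did not pass. Csf2rb2, a beta chain of the IL-3 receptor, was lower by -1.76 ± 0.52 (edgeR adjusted p = 0.0084) with overlapping libraries and lost its call without G-NHA9-21FGAA replicates 4 and 5, when 3 receptors were lower. Of 17 myeloid transcription factors 5 were higher (Cebpa, Cebpd, Gfi1, Irf8 and Spi1) and 1, Maf, was lower, against the same shares of all tested genes and with a median of -0.02. Cebpa, which commits progenitors to granulocytes, measured 138, 158, 166, 154 and 156 CPM against 73.5, 101, 104, 76.2 and 74.2 CPM, a log2 fold change of 0.85 ± 0.11 (SE, edgeR adjusted p = 1.9e-07). The groups did not overlap, at less than a 2-fold difference. Gfi1, a repressor needed for neutrophils, had a log2 fold change of 1.08 ± 0.25 (SE, edgeR adjusted p = 9.1e-04), and Spi1, which encodes PU.1, had a log2 fold change of 0.30 ± 0.07 (SE, edgeR adjusted p = 0.0019).

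Granule genes of neutrophils did not follow as a group. Of 6 tested genes of the primary granules 2 were higher (Ms4a3 and Cst7), where 18.1% of all tested genes were, with a median of 0.44. Ms4a3, a marker of granulocyte and monocyte progenitors, measured 121, 329, 204, 137 and 262 CPM in G-NHA9Midi and 101, 114, 114, 112 and 99.7 CPM in G-NHA9-21FGAA, a log2 fold change of 0.96 ± 0.32 (SE, edgeR adjusted p = 0.019), and lost the call without G-NHA9-21FGAA replicates 4 and 5, at 0.94, and without G-NHA9Midi replicate 2, at 0.74. Mpo, myeloperoxidase, measured 118, 325, 186, 135 and 289.7 CPM against 352, 346, 408, 352 and 409 CPM. Its libraries did not overlap, with G-NHA9Midi below, but the log2 fold change of -0.83 ± 0.37 (edgeR adjusted p = 0.082) did not pass, and it passed without G-NHA9Midi replicate 2, at -1.04. Replicates 2 and 5 of G-NHA9Midi were the highest of their group for both genes.

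Of 16 late neutrophil genes 5 were higher (Mmp9, Padi4, S100a9, S100a8 and Lcn2) and 4 lower (Fpr1, Chil3, Camp and Ltf), with a median of 0.43. Over all tested genes the shares were 18.1% higher and 18% lower. The count of 5 depended on few libraries, being 2 without G-NHA9-21FGAA replicates 4 and 5, 3 without G-NHA9-21FGAA replicate 5 or G-NHA9Midi replicate 5, and 8 without G-NHA9-21FGAA replicate 1. S100a8, a calcium-binding alarmin, measured 3162, 7079, 5025, 6108 and 7337 CPM against 3865, 3978, 3981, 3055 and 2201 CPM, a log2 fold change of 0.75 ± 0.26 (SE, edgeR adjusted p = 0.022), and lost the call without G-NHA9-21FGAA replicates 4 and 5 (0.53), G-NHA9-21FGAA replicate 5 (0.60), G-NHA9Midi replicate 2 (0.66) or G-NHA9Midi replicate 5 (0.64). Its libraries overlapped. Ltf, lactoferrin of the secondary granules, measured 234, 318, 255, 426 and 522 CPM against 837, 689, 810.3, 894 and 624 CPM, a log2 fold change of -1.14 ± 0.24 (SE, edgeR adjusted p = 3.2e-04). Here every G-NHA9Midi library lay below. Ly6g and Itgam, the antigens Ly6G and CD11b, had 0.77 ± 0.32 (edgeR adjusted p = 0.056) and 0.46 ± 0.19 (edgeR adjusted p = 0.061) and did not pass. 

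Monocyte and macrophage genes divided. Ly6c2, the Ly6C antigen of classical monocytes and their precursors, measured 890.1, 1709, 1151, 996 and 1581 CPM in G-NHA9Midi and 343, 398, 372, 452 and 312 CPM in G-NHA9-21FGAA, a log2 fold change of 1.75 ± 0.16 (SE, edgeR adjusted p = 1.8e-10). Ccr2, the chemokine receptor by which monocytes leave the marrow, measured 1110.5, 1177, 1084, 916 and 609 CPM against 395, 323, 425, 205 and 167 CPM, a log2 fold change of 1.69 ± 0.23 (SE, edgeR adjusted p = 4.6e-07). Neither gene overlapped between constructs. For Ly6c2, G-NHA9-21FGAA replicates 1 to 4 lay above the empty vector range of 251 to 326 CPM and replicate 5 within it. For Ccr2, G-NHA9-21FGAA replicates 1 and 3 lay above the empty vector range of 240.2 to 389 CPM, replicate 2 within it and replicates 4 and 5 below it. Cd14, the LPS coreceptor, was the other higher member of 19 tested macrophage and monocyte genes, and 7 were lower (Marco, Cx3cr1, Mertk, Msr1, C1qb, Lyz2 and Itgax), with a median of -0.38. Over all tested genes 18.1% were higher and 18% lower. Marco, a scavenger receptor of mature macrophages, differed by -3.15 ± 0.32 (edgeR adjusted p = 1.6e-09). Lyz2, lysozyme, at -0.64 ± 0.24 (edgeR adjusted p = 0.032), overlapped between the constructs and lost its call without G-NHA9Midi replicate 2, 3 or 5 or G-NHA9-21FGAA replicate 2 or 3, at -0.63 to -0.49. The count of lower genes was 4 without G-NHA9Midi replicate 2, 3 or 5 or G-NHA9-21FGAA replicate 2. Adgre1 and Cd68, general macrophage markers, had -0.03 and 0.13. 

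Among antigen presentation genes H2-Ob had the largest log2 fold change. Of 10 MHC class II genes 3 were higher and 1, the activator Ciita, was lower, where 18.1% of all tested genes were higher and 18% lower, with a median of 0.09. H2-Ob, the beta chain of the peptide-loading modulator H2-O, measured 101, 118, 111, 113 and 117 CPM in G-NHA9Midi and 14.9, 18.4, 17.05, 11.6 and 10.9 CPM in G-NHA9-21FGAA, a log2 fold change of 2.94 ± 0.20 (SE, edgeR adjusted p = 6.2e-13). G-NHA9-21FGAA libraries lay near the empty vector range of 9.96 to 15.7 CPM. The other higher members were H2-Oa and H2-Ab1, at 0.71 and 0.72. Of 6 genes of the phagocyte NADPH oxidase, which makes superoxide, Ncf4 was among the higher members, and of 12 CC chemokines Ccl4 was higher and Ccl17 lower (4 lower without G-NHA9Midi replicate 4). 

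Markers of other cell types were at low level. Of 9 listed B cell genes 2 were tested, and Ebf1 was higher; summed levels were 1.34 to 1.47 CPM in G-NHA9Midi and 0.676 to 1.17 CPM in G-NHA9-21FGAA, and the defining markers Ms4a1 and Vpreb1 had too few counts to test. Of 9 listed T and NK cell genes 4 were tested and none changed by edgeR, at an unadjusted p under 0.05 or by DESeq2, with sums of 0.630 to 1.10 and 0.668 to 1.59 CPM. Endothelial and stromal genes summed to 25.96 to 40.5 and 29.8 to 53.6 CPM, with 1 of 5 tested higher and 3 lower.

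**Figure D5:**
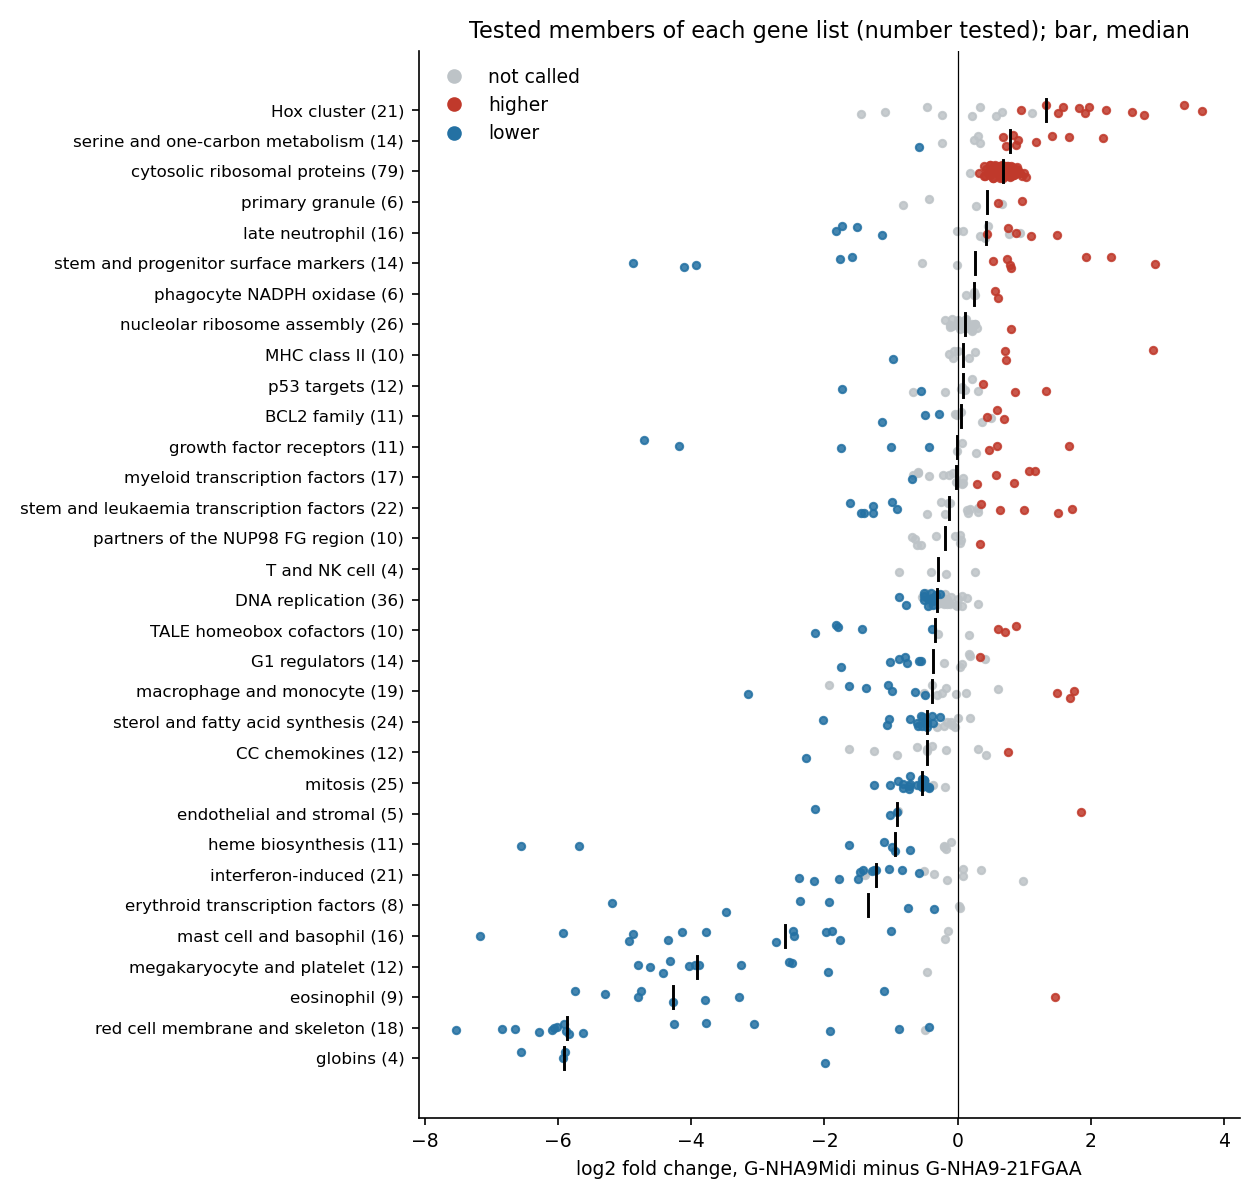
Log2 fold change, G-NHA9Midi minus G-NHA9-21FGAA, of every tested member of each gene list with 4 or more tested members (number tested in parentheses), with lists ordered by their median (black bar) and points colored by whether the gene passed as higher, passed as lower or did not pass. Globin and red cell lists lie at the low end with medians of -5.90 and -5.86, and the Hox list is at the high end with 1.32.

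Ribosomal protein genes were almost uniformly higher in G-NHA9Midi. Of 79 tested genes for proteins of the cytosolic ribosome, 78 were higher and 77 had libraries that did not overlap (12.3% of all tested genes lay above without overlap), with a median log2 fold change of 0.68 and a range of 0.19 to 1.03. None was lower by edgeR, at an unadjusted p under 0.05 or by DESeq2. Rps23, a protein of the decoding center, measured 1002, 1052, 1014, 1059 and 1094 CPM in G-NHA9Midi and 507, 567, 535, 464 and 484 CPM in G-NHA9-21FGAA, a log2 fold change of 1.03 ± 0.13 (SE, edgeR adjusted p = 1.7e-07). The gap between the groups was wider than the range within either. Rpl41, the exception, measured 706, 674, 719, 822 and 798 CPM against 561, 724, 658, 682 and 634 CPM and had a log2 fold change of 0.19 ± 0.10 (edgeR adjusted p = 0.13). Against the empty vector, 77 of the 79 were higher in G-NHA9Midi (median 0.64) and the median in G-NHA9-21FGAA was -0.06. The summed level was 64846, 68696, 66699, 72902 and 73242 CPM in G-NHA9Midi and 40564, 46502, 44694, 42372 and 41483 CPM in G-NHA9-21FGAA. Many of these genes have processed pseudogenes of near-identical sequence, which makes single values uncertain, and 73 to 78 of them were higher in every alternative tried.

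Genes of ribosome assembly in the nucleolus depended on which libraries were compared. Of 26 tested genes 1 was higher, Rrp1b, with 65.3, 88.6, 83.01, 69.7 and 89.02 CPM against 41.5, 40.9, 42.5, 45.99 and 54.98 CPM and a log2 fold change of 0.81 ± 0.12 (SE, edgeR adjusted p = 1.8e-06), and none was lower by edgeR, at an unadjusted p under 0.05 or by DESeq2. The median was 0.10, and Ncl and Npm1, which encode nucleolin and nucleophosmin, had 0.03 ± 0.21 (edgeR adjusted p = 0.93) and 0.29 ± 0.18 (edgeR adjusted p = 0.23). Both constructs were above the empty vector, in 25 of the 26 genes with G-NHA9Midi and in 24 with G-NHA9-21FGAA. The summed level was 2589, 2304, 2380.4, 1958 and 1816 CPM in G-NHA9Midi and 1789, 1706, 1782, 2223 and 2478 CPM in G-NHA9-21FGAA, so that replicates 1 to 3 were higher in G-NHA9Midi than the same numbers in G-NHA9-21FGAA and replicates 4 and 5 were lower. Without G-NHA9-21FGAA replicates 4 and 5, 6 of the 26 genes were higher. With replicates 1 to 3 of every condition 18 were higher, and with replicates 4 and 5 of every condition 7 were lower. 

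Genes of the cell cycle were lower in G-NHA9Midi than in G-NHA9-21FGAA. Of 25 mitosis genes 21 were lower (median -0.54), and of 36 DNA replication genes 13 were lower (median -0.30), where 18% of all tested genes were. None of the mitosis genes was higher by edgeR, at an unadjusted p under 0.05 or by DESeq2, and none of the replication genes was higher by edgeR or DESeq2, with 1 at an unadjusted p under 0.05. Mki67, the Ki-67 antigen of dividing cells, measured 249, 513, 355, 189.9 and 326 CPM in G-NHA9Midi and 872, 630.0, 684, 855 and 832 CPM in G-NHA9-21FGAA, a log2 fold change of -1.25 ± 0.23 (SE, edgeR adjusted p = 4.4e-05). Kif20a, a kinesin of cell division, measured 20.5, 41.2, 28.97, 23.1 and 37.7 CPM against 51.97, 61.2, 54.3, 67.8 and 71.1 CPM, a log2 fold change of -1.02 ± 0.19 (SE, edgeR adjusted p = 5.3e-05). Mki67 and Kif20a did not overlap between constructs, but only 3 of the 25 mitosis genes and 1 of the 36 replication genes lay below without overlap. That is no more than the 12.2% of all tested genes that did so. The summed mitosis level was 1327, 2821, 1883, 1220.1 and 1921 CPM in G-NHA9Midi, where replicate 2 stood in the G-NHA9-21FGAA range, and 3127, 2802, 2803, 3153 and 3182 CPM in G-NHA9-21FGAA. The counts rested on few libraries: 7 mitosis and 3 replication genes were lower without G-NHA9-21FGAA replicates 4 and 5, 10 to 13 mitosis genes without G-NHA9Midi replicate 1, 3 or 4, and 8 replication genes without G-NHA9Midi replicate 1 or 4 or without G-NHA9-21FGAA replicate 4 or 5, against 20 without G-NHA9Midi replicate 2. Against the empty vector 1 mitosis gene and 19 replication genes were higher in G-NHA9Midi, and 24 and 31 in G-NHA9-21FGAA.

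Among 14 G1 regulators 7 were lower in G-NHA9Midi, among them the cyclins Ccnd1, Ccne1 and Ccne2 and the inhibitors Cdkn1c and Cdkn2c at -1.75 and -1.02, and 1, the inhibitor Cdkn1b, was higher. The shares of all tested genes were 18% lower and 18.1% higher. Of 12 p53 targets 3 were higher and 2 lower, not far from those shares. Fas, the death receptor, rose from 21.96, 16.7, 17.6, 15.5 and 13.97 CPM in G-NHA9-21FGAA to 38.02, 35.8, 39.7, 54.8 and 47.8 CPM in G-NHA9Midi, a log2 fold change of 1.33 ± 0.16 (SE, edgeR adjusted p = 2.8e-08), and Mdm2 and Cdkn1a had -0.19 and 0.19. Of 11 BCL2 family genes, the regulators of mitochondrial cell death, 3 were higher and 3 lower, also not far from the shares of all tested genes. Bcl2 itself had a log2 fold change of 0.69 ± 0.15 (SE, edgeR adjusted p = 6.4e-04).

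Metabolic lists moved in opposite directions. Of 14 genes of serine and one-carbon metabolism and of the amino acid response, 9 were higher and 1, Mthfd1, was lower, with a median of 0.78. Trib3, a target of ATF4, measured 124, 62.3, 94.5, 98.7 and 82.4 CPM in G-NHA9Midi and 23.01, 17.2, 27.5, 17.7 and 16.3 CPM in G-NHA9-21FGAA, a log2 fold change of 2.18 ± 0.29 (SE, edgeR adjusted p = 2.2e-07). The highest G-NHA9-21FGAA library was well under the lowest G-NHA9Midi library, and the empty vector range was 26.2 to 87.8 CPM. Asns, asparagine synthetase, had a log2 fold change of 1.42 ± 0.36 (SE, edgeR adjusted p = 0.0021) and lost its call without G-NHA9-21FGAA replicates 4 and 5, which were its lowest libraries, at 1.03. Atf4 and Phgdh, the first enzyme of serine synthesis, had 0.73 and 0.88. 

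Of 24 genes of sterol and fatty acid synthesis 15 were lower in G-NHA9Midi and none was higher by edgeR, at an unadjusted p under 0.05 or by DESeq2, with a median of -0.46. Scd1, the desaturase that makes oleate, measured 32.4, 51.1, 44.4, 45.97 and 68.2 CPM against 195, 188, 170.3, 165 and 261 CPM, a log2 fold change of -2.02 ± 0.24 (SE, edgeR adjusted p = 3.3e-08). Idi1, of isoprenoid synthesis, measured 26.4, 44.8, 31.5, 29.7 and 29.9 CPM against 68.3, 69.6, 67.6, 67.4 and 64.4 CPM, a log2 fold change of -1.06 ± 0.15 (SE, edgeR adjusted p = 7.7e-07). The groups were apart in both, and for Idi1 most of the G-NHA9Midi values lay in the empty vector range of 22.99 to 40.9 CPM. Fasn, the fatty acid synthase, had -0.53 and did not pass. 

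Interferon-induced genes were lower in G-NHA9Midi in 12 of 21 tested cases (median -1.23), but the call turned on 2 libraries. Rsad2, the antiviral protein viperin, measured 6.44, 6.03, 9.76, 7.68 and 8.38 CPM in G-NHA9Midi and 10.4, 22.4, 10.5, 94.4 and 33.1 CPM in G-NHA9-21FGAA, a log2 fold change of -2.16 ± 0.52 (SE, edgeR adjusted p = 0.0014). Replicates 4 and 5 of G-NHA9-21FGAA were the highest, replicate 4 by far, and without them Rsad2 did not pass, at -0.92. The summed level of the list was 292, 286, 304, 309 and 307 CPM in G-NHA9Midi and 288, 340.4, 284, 636 and 407 CPM in G-NHA9-21FGAA. In the empty vector it was 319.9 to 564 CPM. Against the empty vector 12 of the 21 genes were lower in G-NHA9Midi (20% of all tested genes were), with a median of -1.22. In G-NHA9-21FGAA 0 were called higher or lower, with a median of -0.06. Without replicates 4 and 5 of G-NHA9-21FGAA, edgeR called 0 of the 21 genes lower (1 at an unadjusted p under 0.05), and without replicate 4 alone it called 4, without G-NHA9Midi replicate 2 it called 6 and with a sex score as covariate 7.

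The genes that changed most outside these lists were taken by rank. Among tested genes without overlap whose mean reached 5 CPM, the 12 that rose most were Tmem47, Crisp3, Chil4, Tnfsf11, Csn2, Pfn2, Tgm3, Hid1, Frmd5, Bpifc, Cxcl3 and Rgs16, with log2 fold changes of 3.70 to 6.83. Chil4, a chitinase-like protein of myeloid cells, measured 209, 198, 193, 315 and 213 CPM in G-NHA9Midi and 2.06, 1.76, 1.60, 3.99 and 2.15 CPM in G-NHA9-21FGAA, a log2 fold change of 6.59 ± 0.44 (SE, edgeR adjusted p = 3.7e-13). Csn2, which encodes the milk protein beta-casein, measured 45.2, 155, 92.2, 78.8 and 181 CPM against 1.02, 1.41, 0.705, 6.31 and 9.17 CPM, a log2 fold change of 4.89 ± 0.81 (SE, edgeR adjusted p = 1.1e-05). The chitinase-like genes went in opposite directions, as Chil3 fell from 6892, 7238, 6888, 6612 and 4614 CPM in G-NHA9-21FGAA to 1556, 1394, 1522, 2818 and 2441 CPM in G-NHA9Midi, a log2 fold change of -1.73 ± 0.30 (SE, edgeR adjusted p = 2.8e-05). Chil3 and Chil4 are close paralogs, and how reads that fit both were counted is not given. Tnfsf11, which encodes the osteoclast factor RANKL, measured 11.98, 20.04, 12.8, 9.36 and 9.29 CPM against 0.404, 0.145, 0.254, 0.310 and 0.788 CPM, with the empty vector at 0 to 0.120 CPM.

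The lowest p among the higher genes was that of Pfn2, a profilin of the actin skeleton, with 42.9, 34.4, 41.4, 26.9 and 33.5 CPM in G-NHA9Midi and 1.47, 1.41, 1.23, 1.01 and 0.979 CPM in G-NHA9-21FGAA, a log2 fold change of 4.88 ± 0.15 (SE, edgeR adjusted p = 9.4e-22). G-NHA9-21FGAA libraries lay within or just above the empty vector range of 0.826 to 1.20 CPM. Tgfb2, the cytokine TGF-beta 2, and Azgp1, a lipid-mobilizing glycoprotein, were next to absent outside G-NHA9Midi: every G-NHA9-21FGAA library held at most 3 counts of either, and G-NHA9Midi was at least 149-fold and at least 146-fold higher. The G-NHA9Midi libraries measured 6.24, 13.2, 10.2, 6.12 and 8.76 CPM for Tgfb2 and 4.78, 16.1, 10.7, 4.04 and 8.03 CPM for Azgp1. Tgm2, tissue transglutaminase, was abundant in all and measured 799, 846, 947, 773 and 893 CPM against 237, 249, 277, 251 and 214 CPM, a log2 fold change of 1.79 ± 0.11 (SE, edgeR adjusted p = 5.3e-14). Its spread within each group was narrow, and the G-NHA9-21FGAA range included part of that of the empty vector (267 to 285 CPM).

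The 12 that fell most included Mcpt1, Slc4a1, Alas2, Hba-a2, Igfbp5, Ermap, Mcpt2, Hba-a1, Ank1, Tmem56 and Hbb-bs, and 10 of the 12 are members of the red cell, heme, globin or mast cell lists. Igfbp5, which binds insulin-like growth factors, and Tmem56, a membrane protein, are outside them. Tmem56 measured 0.140, 0.420, 0.205, 0.321 and 0.103 CPM in G-NHA9Midi and 13.5, 15.1, 11.7, 14.03 and 13.4 CPM in G-NHA9-21FGAA, a log2 fold change of -5.89 ± 0.39 (SE, edgeR adjusted p = 3.6e-13). Igfbp5 measured 0.997, 0.180, 0.573, 1.02 and 0.948 CPM against 35.4, 27.5, 30.2, 104 and 135 CPM, with replicates 4 and 5 of G-NHA9-21FGAA the highest. By lowest p, the genes that fell included Ttc39b, Rnf144b and Rab15. Ttc39b, a regulator of lipid metabolism, measured 9.63, 9.03, 8.98, 10.1 and 10.8 CPM against 51.6, 41.2, 44.8, 38.8 and 38.4 CPM, a log2 fold change of -2.14 ± 0.10 (SE, edgeR adjusted p = 3.5e-17), and the empty vector range was 38.4 to 52.5 CPM. 

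The most abundant genes with at least a 2-fold change were Thbs1, Txnip, Ly6c2, Rps23, Emb and Ccr2 among those higher in G-NHA9Midi, and Chil3, Cpa3, Lpl, Ltf, Lrp1 and Mki67 among those lower. Thbs1, the matrix protein thrombospondin-1, measured 4881, 6304, 5165, 4059.6 and 6097 CPM in G-NHA9Midi and 3843, 2533, 3349, 1184 and 1030.1 CPM in G-NHA9-21FGAA, a log2 fold change of 1.15 ± 0.28 (SE, edgeR adjusted p = 0.0014). G-NHA9-21FGAA replicates 4 and 5 were the lowest of the 10 libraries. Txnip, an inhibitor of thioredoxin and glucose uptake, had a log2 fold change of 1.24 ± 0.32 (SE, edgeR adjusted p = 0.0028) and lost its call without these 2 libraries, at 0.79. Lpl, lipoprotein lipase, and Lrp1, a lipoprotein receptor of macrophages, fell by 1.44 and 1.49 on the log2 scale.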

How the data were processed

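RNA-seq gene counts of 35 libraries of mouse lin- HSPCs were used, 5 for each of 7 conditions, and groups were taken from the labels. The authors deposited whole-number counts per Ensembl gene. Libraries were made with a stranded total RNA kit and sequenced paired-end. The submitters' processing notes name STAR 2.7.0d, HTSeq 0.11.2, DESeq2 and mm10 with no role for each, and the strand setting of the counting is not given in the sources used here. Gene positions and overlaps come from GENCODE M21, in which 99.5% of the gene IDs were found.

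Counts were tested with edgeR 4.0.16 (R 4.3.3): genes were kept by filterByExpr, TMM factors scaled the libraries, and all 35 entered 1 quasi-likelihood model with a term per condition. The contrast was G-NHA9Midi minus G-NHA9-21FGAA, and p was adjusted by Benjamini-Hochberg over 17166 genes. Each construct was set against the empty vector in the same model. Standard errors were derived from the F statistic. Named genes were list members, genes ranked by fold change (12 each way, mean of at least 5 CPM, no overlap), abundance (6) or p (4), and Nup98 and Hoxa9. Some of them are not reported here, but list counts include them. The members and the gene lists were chosen with earlier results of these data known. The test was checked on simulated counts. Alternatives were scaling, filters, a replicate block, a sex score, 2 conditions only, DESeq2 1.42.0, a fold threshold, each library left out and, added after seeing the data, subsets of replicates.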

Additional observations from a re-analysis of the deposited data

Results flagged for a closer look

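Of 214 groups of 5 libraries checked, 11 held a library far from the other 4 by Dixon's criterion (critical value 0.71), close to the 1 in 20 that chance flags. In G-NHA9Midi the highest library stood apart for Csf2rb2 (254 CPM, replicate 5), Idi1 (44.8 CPM, replicate 2) and Chil4 (315 CPM, replicate 4). In G-NHA9-21FGAA the highest library stood apart for Cd27 (0.740 CPM, replicate 5), Chil4 (3.99 CPM, replicate 4), Rsad2 (94.4 CPM, replicate 4) and Azgp1 (0.0207 CPM, replicate 2, which is under the limit of 3 counts, the other 4 libraries being at 0). The lowest G-NHA9-21FGAA library stood apart for Chil3 (4614 CPM, replicate 5).

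Of the list sums in G-NHA9-21FGAA, the highest library stood apart for the stem and progenitor surface markers (1585 CPM, replicate 1) and the mast cell and basophil genes (7105 CPM, replicate 4), and the lowest for the phagocyte NADPH oxidase genes (1747 CPM, replicate 5).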

How the results depend on the processing

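The count of 6191 changed genes (3105 higher, 3086 lower in G-NHA9Midi) was 5987 without TMM factors, 6103 with RLE size factors, 5765 with no filter on low counts, 5086 at a mean of at least 1 CPM, 6155 with a sex score as covariate, 5323 in a fit of the 10 libraries alone, 6556 by DESeq2 and 5340 to 6219 with 1 library left out. At an absolute log2 fold change of at least 1 it was 2345 (690 higher, 1655 lower). In fits added after seeing the data it was 5543 with replicates 1 to 3 of every condition, 4810 with replicates 4 and 5, and 4587 without G-NHA9-21FGAA replicates 4 and 5. Without TMM factors 41.5% of changed genes were higher, against 50.2%.

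Libraries with the same replicate number had correlations of deviations of 0.367, -0.012, 0.243, 0.11 and 0.283, over 0.1 in 4 of the 5 pairs, with a mean of 0.198. The mean between different numbers was -0.049. Deviations were taken from each construct's own mean and cancel over its 5 libraries, so the latter value is no separate baseline. As 1 pair was not over 0.1 and the labels do not say what a number marks, the numbers were not taken to pair the samples. With a replicate block 7689 genes changed, of which 6182 were also changed without it, 8 late neutrophil genes were higher, against 5, and 5 genes for partners of the NUP98 FG region (main 0), 4 myeloid factors (main 1) and 4 CC chemokines (main 1) were lower.

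With 1 library left out, the count of higher late neutrophil genes was 3 to 8 (main 5), and the counts of lower genes were 4 to 8 for macrophage and monocyte genes (main 7), 8 to 20 for DNA replication (main 13), 10 to 24 for mitosis (main 21) and 4 to 13 for interferon-induced genes (main 12). Without G-NHA9-21FGAA replicates 4 and 5, the counts were 2 higher late neutrophil genes, 3 lower receptors (main 5), 3 lower replication genes, 7 lower mitosis genes and 0 lower interferon-induced genes (1 at an unadjusted p under 0.05 in edgeR; DESeq2 was not run on that subset). With replicates 1 to 3 of every condition they were 1 late neutrophil, 3 replication, 3 mitosis and 1 interferon-induced, and 4 myeloid factors (main 1) and 4 MHC class II genes (main 1) were lower. With replicates 4 and 5 of every condition, 3 stem cell factors (main 5), 8 myeloid factors (main 5) 10 late neutrophil genes and 8 MHC class II genes (main 3) were higher, and 24 replication genes and 3 G1 regulators (main 7) were lower. With the sex score, 3 late neutrophil genes were higher and 7 interferon-induced genes lower. At a mean of at least 1 CPM, 6 Hox genes were higher (main 12), as fewer were tested. Apart from that and the fits with fewer libraries, the cause was not tested.

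Over 88 named genes and 1846 gene and setting pairs, 1821 were called in both fits in the same direction or in neither fit. The call was lost in 22 (in 8 genes: Csf2rb2, Lyz2, Ltf, S100a8, Ms4a3, Asns, Rsad2 and Txnip) and gained in 3 (Nup98 at 0.23 with the sex score, and Mpo in 2 fits). Of the pairs called in at least 1 fit, 0 reversed direction, and direction was not compared for pairs called in neither. Genes near 3 counts per library, such as Hoxb8 and Hoxb9, are limited by depth, and intervals from 5 libraries cover the spread between these libraries alone.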
